A study of Mus musculus with 5 samples.

Results

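The genes described here are 8 receptors and ligands of neurotrophic factor signalling: Ntrk2, Ntrk3, Bdnf, Gfra1, Gfra2, Ret, Met and Hgf. They were taken by name, as every probe set (a group of oligonucleotides reading 1 transcript region) annotated with 1 of these symbols alone, which gave 33 of 45101 probe sets and 8 of 18193 named genes. The arrays were Affymetrix mouse expression arrays of RNA from the rostral medial ganglionic eminence (MGE), the embryonic ventral forebrain zone that generates many cortical interneurons. Per the labels, all material came from the proliferative zones (ventricular and subventricular) of E15.5 embryos. The 4 groups were primary neuronal cultures from Dlx1/2 mutants (1 array), primary neuronal cultures from wild type (WT, 1 array), dissected tissue from Dlx1/2 mutants (2 arrays) and dissected tissue from WT (1 array). Dlx1 and Dlx2 are homeodomain transcription factors of this zone. The labels mark the mutants as -/- and give neither the alleles, the time in culture, nor whether embryos were pooled. The WT tissue title has an incomplete mark (+/) and the WT culture title has none, while the descriptions of both say WT. No label ties the 2 mutant tissue arrays to separate animals, so p-values measure a spread between arrays that may be technical.

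Neurotrophic factors are secreted proteins that act through receptor tyrosine kinases. BDNF and neurotrophin-4 bind TrkB, the product of Ntrk2, while neurotrophin-3 binds TrkC, the product of Ntrk3. GDNF binds the membrane-anchored co-receptor encoded by Gfra1 and neurturin the one encoded by Gfra2. Both then signal through the kinase encoded by Ret or through the adhesion molecule NCAM. HGF is the ligand of the kinase encoded by Met. In rodents, TrkB ligands, GDNF with its Gfra1 co-receptor, and HGF have each been linked to the migration of MGE-derived interneurons.

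Homeodomain proteins, the Dlx family among them, are known to bind DNA around a TAAT core. The 250 bases before the annotated gene start are therefore shown for Ntrk2, the gene with the most probe sets above the intensity filter, and for Met, whose WT tissue array stood apart from the other 4. They are RefSeq sequences (build GRCm38.p6, plus strand of chr13:58806319-58806568 for Ntrk2 and of chr6:17463707-17463956 for Met), written 5′ to 3′, with any TAAT or its reverse complement ATTA in capitals.
Ntrk2: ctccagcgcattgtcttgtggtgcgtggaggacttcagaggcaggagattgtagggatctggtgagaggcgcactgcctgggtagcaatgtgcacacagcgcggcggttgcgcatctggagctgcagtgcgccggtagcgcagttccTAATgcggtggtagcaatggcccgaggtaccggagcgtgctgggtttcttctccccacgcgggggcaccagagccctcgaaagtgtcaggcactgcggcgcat
Met: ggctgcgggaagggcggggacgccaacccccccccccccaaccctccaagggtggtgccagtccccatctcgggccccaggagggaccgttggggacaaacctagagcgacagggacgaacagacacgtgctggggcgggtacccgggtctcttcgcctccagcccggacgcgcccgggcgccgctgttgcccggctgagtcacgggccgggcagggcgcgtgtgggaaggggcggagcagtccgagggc
The Ntrk2 window holds 1 TAAT, which begins 103 bases before the start, and the Met window holds none. The Met window has a GC content of 74.0% and the Ntrk2 window one of 62.8%, against a median of 52.4% over 32851 such windows. TAAT or ATTA occurs in 54.9% of all windows, and the longer palindrome TAATTA, which contains both, in 4.84%. Of the 8 genes, 5 (Ntrk2, Bdnf, Gfra1, Met and Hgf) had an entry in this set of windows. They had 12 windows, of which 6 hold TAAT or ATTA and 0 hold TAATTA. Bdnf, which has many alternative promoters, contributed 7 of these windows, and 4 of the 7 hold the core. No binding was measured, so these matches are a description of the letters only.

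The authors deposited 1 linear signal per probe set and array. Array medians lay between 26.2 and 29.8. Signals were quantile normalised here, values under the pooled 20th percentile (5.15) were raised to it as a floor, and log2 was taken. A gene was tested when the mean of its brightest probe set lay above the pooled median (a signal of 27.8), which 11063 genes did. The targeted genes checked the labels: Dlx1 had signals of 1.26 in mutant culture and 603 in WT culture, and of 2.799 and 0.921 in mutant tissue and 3278 in WT tissue. In WT, MGE and interneuron markers lay above the floor in both preparations, but their levels differed. Of the 10 tested, 6 fell in culture relative to tissue and 2 rose (Gad1 and Maf). Nkx2-1, which specifies the MGE, was low in culture (12.6 in mutant and 16.2 in WT) beside tissue (60.6 and 78.4 in mutant, 43.3 in WT). Lhx8 differed by more, −3.93 in culture relative to tissue (log2, limma adjusted p = 4.99e-05). It read 15.46 in mutant culture and 56.4 in WT culture, 168 and 164 in mutant tissue, and 1513 in WT tissue. The summed signal of 10 MGE and interneuron markers was 2504 in mutant culture and 7283 in WT culture, and 3053 and 3184 in mutant tissue and 10900 in WT tissue. That sum includes the targeted Dlx1 and Dlx2 (1069 for Dlx2 in WT tissue), so part of its drop follows from the genotype itself. Of the 10, 7 fell in mutant tissue, where 6.70% of all genes did. These 7 include the targeted Dlx1 and Dlx2, whose fall follows from the genotype, beside Lhx6, Lhx8, Dlx5, Gad2 and Maf. Nkx2-1, Sox6 and Gad1 did not pass (limma adjusted p = 0.161, 0.715 and 0.241). The part of these markers in the values below was not tested. In these bulk samples, fewer cells of a type and less RNA per cell cannot be told apart.

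Of the 8 genes, 4 passed the intensity filter and were tested: Ntrk2, Ntrk3, Gfra1 and Gfra2. Bdnf, Ret, Met and Hgf were too dim on average and are given as values. In limma fits adjusted over all genes tested, 0 of the 4 changed with genotype in tissue, where 15.3% of all genes did, and 0 of 4 across both preparations, where 1.07% did. By unadjusted limma p-values, Ntrk3 passed 0.05 in tissue and Ntrk2 and Ntrk3 passed it across both preparations. Ntrk2 and Ntrk3 rose in culture relative to tissue, 2 of 4, where 38.8% of all genes changed and 19.6% rose. For 0 of the 4 did the genotype difference itself differ between culture and tissue (0 by unadjusted limma p-values too), where 4.48% of all genes passed that test. On the normalised scale, every mutant array lay above the WT array of its own preparation for 2 of the 4, Ntrk2 and Ntrk3, as it did for 22.9% of genes tested. Every mutant array lay below on that scale for 1 of the 4, Gfra1, as for 20.6% of genes, although its culture arrays differed by only −0.04 there and by 0.002 with the deposited scaling. Both culture arrays lay above all tissue arrays for 1 of the 4, Ntrk2, as for 29.6% of genes, and below them for 0 of the 4, as for 29.2%. In tissue 0 of the 4 differed at least 2-fold between genotypes, where 3% of genes were higher and 1.92% lower by that much.

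**Figure D1:**
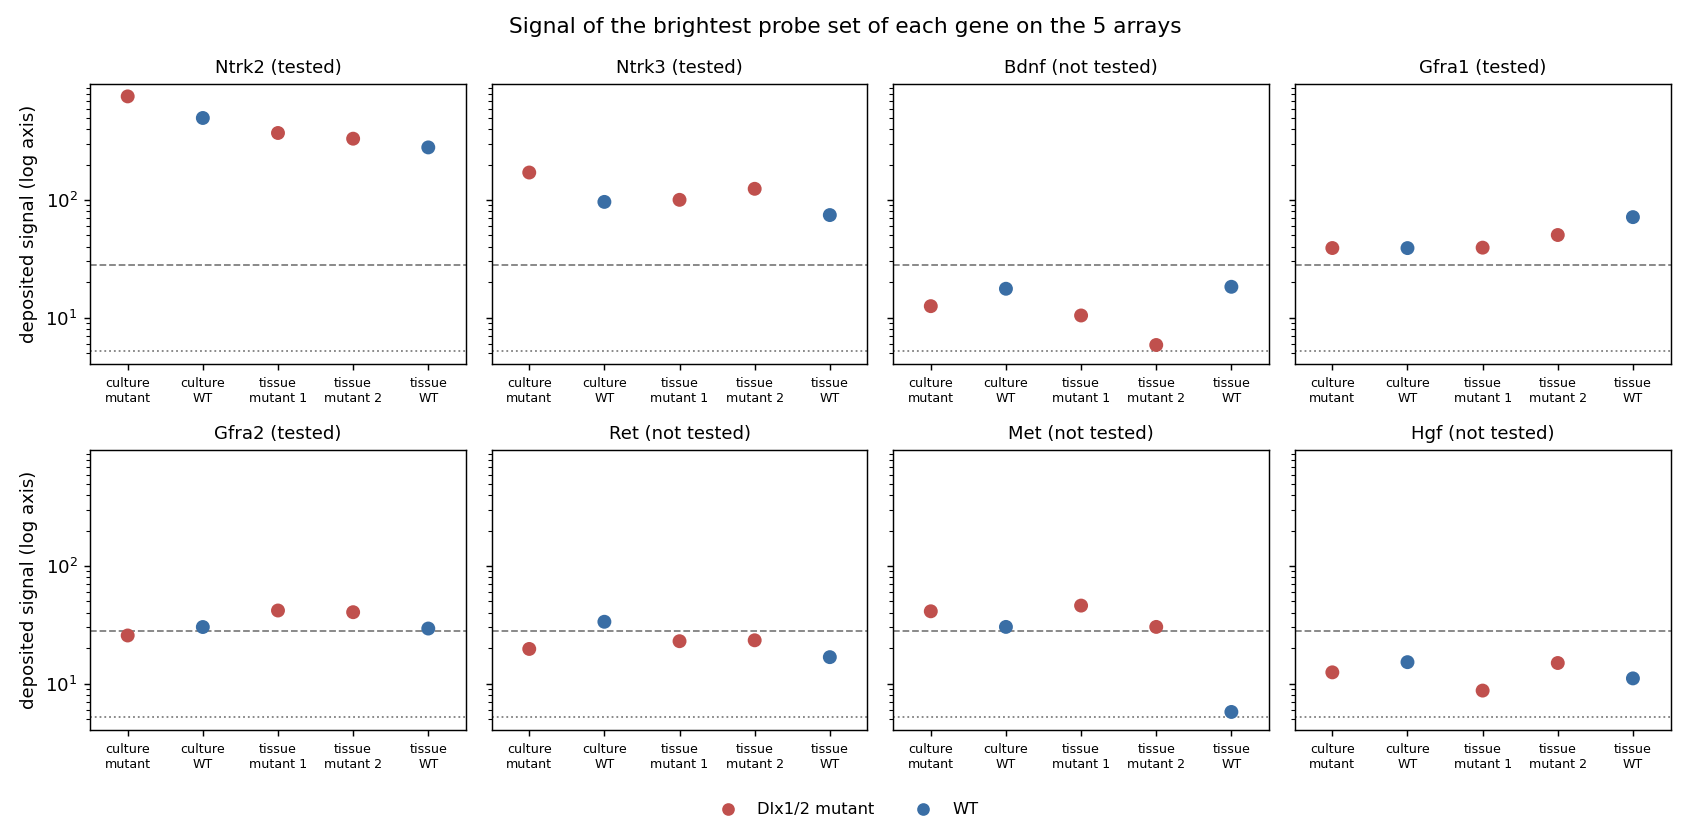
Deposited signal (log axis) of the brightest probe set of each of the 8 genes on the 5 arrays, with red points for Dlx1/2 mutant and blue points for WT arrays; the dashed line is the intensity filter (27.8) and the dotted line the floor (5.15). Ntrk2 runs from 280 to 762, with both culture points above the tissue points, while Bdnf and Hgf stay below the filter on every array and Met lies near the floor in WT tissue alone.

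Ntrk2, the TrkB gene, rose in culture relative to tissue. Its brightest probe set, 1420838_at, read 762 in mutant culture and 499 in WT culture, 372 and 333 in mutant tissue, and 280 in WT tissue. Both culture arrays lay above all 3 tissue arrays, and within each preparation the mutant arrays lay above WT. The levels ran from mutant culture through WT culture and mutant tissue to WT tissue, and the step between the lower mutant tissue array and WT tissue was as large as that between the mutant tissue arrays (0.19 each on the log2 scale). In culture relative to tissue it rose by 1.01 ± 0.14 (SE; log2, 2.01-fold; limma adjusted p = 0.000914). The genotype difference in tissue was 0.29 ± 0.14 (95% interval −0.03 to 0.60, limma adjusted p = 0.211). Across both preparations it was 0.42 ± 0.14 (limma adjusted p = 0.253).

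The array reads Ntrk2 with 8 probe sets, 5 of them above the filter, and these did not move alike. Ntrk2 is known to be spliced into a full-length kinase and truncated forms without the kinase domain. Which of these each probe set reads was not analysed here. A fit in which every probe set was tested on its own, over 19307 probe sets, gave the values below.

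Probe set 1435196_at read 188 in mutant culture and 105 in WT culture, 90.7 and 103 in mutant tissue, and 40.4 in WT tissue. WT tissue was the lowest array, below the other 4. In tissue it rose by 1.29 ± 0.27 in mutants (limma adjusted p = 0.0170). It was the 1 probe set of 10 above the filter among these genes to change with genotype in tissue, where 11.2% of all probe sets did (6.59% rose and 4.56% fell). With limma's prior variance held constant over intensity the call was lost (adjusted p = 0.143). The other 4 Ntrk2 probe sets above the filter also differed upwards in mutant tissue, by 0.28 to 0.65, and did not pass.

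Probe set 1458622_at went the other way in culture: it read 308 in mutant culture and 524 in WT culture, against 135 and 161 in mutant tissue and 90.6 in WT tissue. The mutant lay below WT in culture and above it in tissue. The genotype difference was −0.74 in culture (1 array against 1) and 0.65 ± 0.21 in tissue, and the difference between these 2 differences was −1.39 ± 0.26 (limma adjusted p = 0.0470). It was the 1 of 10 probe sets of these genes to pass this test, which 1.89% of all probe sets did (0.917% upwards and 0.974% downwards). With a constant prior variance the call was lost (adjusted p = 0.285). Probe set 1435305_at showed the same order of arrays, with 250 in mutant culture and 449 in WT culture, 125 and 133 in mutant tissue and 99.9 in WT tissue. Its difference between preparations of −1.16 ± 0.25 missed the threshold (limma adjusted p = 0.0659), and passed with the deposited scaling kept (adjusted p = 0.0251). The test on 1420838_at gave 0.30 ± 0.20 (adjusted p = 0.475) and that on 1435196_at −0.48 ± 0.35 (adjusted p = 0.516). Whether probe sets of the gene differ from one another was not tested.

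**Figure D2:**
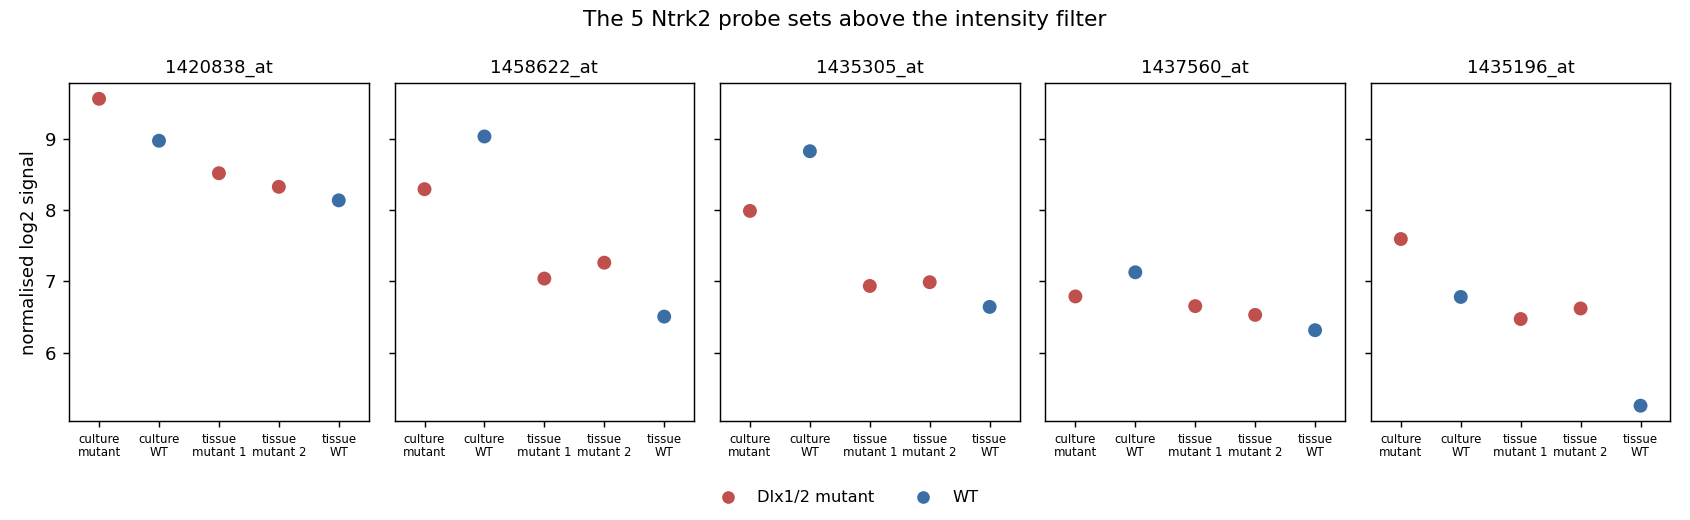
Normalised log2 signal of the 5 Ntrk2 probe sets above the intensity filter, 1 panel each, with a point per array (red, Dlx1/2 mutant; blue, WT); levels are not comparable between panels. The mutant culture point lies above WT culture for 1420838_at and 1435196_at and below it for the other 3, while the mutant tissue points lie above WT tissue in all 5 panels.

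In culture relative to tissue, 4 of these 5 probe sets rose: 1458622_at by 1.74 ± 0.29, 1435305_at by 1.52 ± 0.25, 1435196_at by 1.25 ± 0.21 and 1420838_at by 1.01 ± 0.14 (limma adjusted p between 0.00108 and 0.00286, where 34.9% of all probe sets changed and 16.7% rose). The fifth, 1437560_at, differed by 0.46 ± 0.21 (adjusted p = 0.132). These 4 calls held when mutant tissue replicate 1 or 2 was dropped, with the deposited scaling and with a constant prior variance. The 3 dim Ntrk2 probe sets read between 1.07 and 24.2. Ntrk2 is also known from astrocytes. Of 9 astrocyte and radial glia markers tested, 5 rose and 2 fell in culture relative to tissue, and their summed signal was 20200 in mutant culture and 15630 in WT culture, 14620 and 13520 in mutant tissue and 11910 in WT tissue. Fabp7 alone gave most of that sum (13560 in mutant culture and 11250 in WT culture, 10060 and 9127 in mutant tissue and 8862 in WT tissue). None of the 10 listed markers stood at the floor on all arrays, but Gfap was too dim to test. It read 2.69 to 15.9 on the 5 arrays and was at the floor in WT culture. The summed signal of 10 pericyte and mesenchymal markers was 14640 in mutant culture and 14190 in WT culture, against 1073 and 1125 in mutant tissue and 1210 in WT tissue. Acta2, the smooth muscle actin gene, made up most of it in culture (14090 in mutant and 13630 in WT). The list did not move as 1: of 7 tested, 2 rose (Acta2 and Col1a2) and 3 fell in culture relative to tissue. All genes tested rose in 19.6% and fell in 19.2% of cases. The 3 that fell, Rgs5, Kcnj8 and Abcc9, differed by −2.74, −3.68 and −4.83 (log2). The part of these cell types in the Ntrk2 values was not tested.

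Ntrk3, the TrkC gene, read higher in mutants than in WT within each preparation. Its probe set 1433825_at read 171 in mutant culture and 96.4 in WT culture, 100 and 125 in mutant tissue, and 74.5 in WT tissue. The mutant arrays lay above WT in both preparations. WT culture lay close to the lower mutant tissue array, below it in deposited signal and above it after normalisation (6.66 and 6.62 in log2), and below the other mutant tissue array on either scale, so the preparations overlapped. The genotype difference was 0.55 ± 0.24 in tissue (95% interval 0.03 to 1.08, limma adjusted p = 0.149) and 0.66 ± 0.19 across both preparations (95% interval 0.22 to 1.10, limma adjusted p = 0.198). In culture relative to tissue Ntrk3 rose by 0.59 ± 0.19 (limma adjusted p = 0.0408). That call was lost with the deposited scaling (adjusted p = 0.0760) and with mutant tissue replicate 1 or 2 left out (0.148 and 0.0867), and with dim genes tested too (0.120).

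The other 2 Ntrk3 probe sets above the filter also read higher in mutants. Probe set 1422329_a_at had 52.2 in mutant culture and 34.0 in WT culture, 59.6 and 55.9 in mutant tissue, and 36.3 in WT tissue, so that its 3 mutant arrays lay above both WT arrays. It differed by 0.66 ± 0.28 across both preparations (limma adjusted p = 0.395), and by 0.00 ± 0.28 between culture and tissue (adjusted p = 0.993). Probe set 1425071_s_at differed by 0.40 ± 0.33 across both preparations (adjusted p = 0.669). The 5 dimmer probe sets of Ntrk3 had no common direction: their tissue genotype differences ran from −1.48 to 0.94.

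Bdnf, the TrkB ligand gene, was dim on all 5 arrays. Probe set 1422168_a_at, which stands for the gene, read 12.5 in mutant culture and 17.6 in WT culture, 10.4 and 5.85 in mutant tissue and 18.3 in WT tissue. The mutant arrays lay below the WT arrays in both preparations: the difference was −1.07 in tissue and −0.59 in culture (log2, untested). The other probe set, 1422169_a_at, read 4.47 and 19.4 on the 2 mutant tissue arrays and 3.54 in WT tissue, with 13.7 in mutant culture and 24.2 in WT culture. Mutant tissue replicate 1 and WT tissue were at the floor there, and replicate 2 stood well above both. Among the 7130 genes below the filter, 12.2% differed at least 2-fold downwards in mutant tissue, as Bdnf did, and 11.4% upwards, as Met did. Without mutant tissue replicate 2 the Bdnf difference was −0.67, under 2-fold, and with its 2 probe sets averaged it was −0.05. In culture 0 of the 4 dim genes differed that much, where 14.2% of genes below the filter were higher and 14.8% lower.

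Gfra1, the GDNF co-receptor gene, read 39.06 in mutant culture and 39.01 in WT culture, 39.4 and 50.4 in mutant tissue, and 71.6 in WT tissue by probe set 1439015_at. WT tissue stood above the other 4 arrays, and the culture arrays were nearly equal. The genotype difference in tissue was −0.70 ± 0.33 (95% interval −1.43 to 0.03, limma adjusted p = 0.188). Across both preparations it was −0.42 ± 0.31 (adjusted p = 0.594). The other 2 probe sets of Gfra1 were at the floor on every array, with signals from 1.16 to 5.15, so this gene rests on 1 probe set.

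Gfra2, the neurturin co-receptor gene, was read by 5 probe sets, 1 of them above the filter. That probe set, 1425579_at, read 25.6 in mutant culture and 30.3 in WT culture, 41.8 and 40.5 in mutant tissue, and 29.4 in WT tissue. Mutant tissue stood above the other 3 arrays, which lay close together. The genotype difference was 0.56 ± 0.40 in tissue (limma adjusted p = 0.394) and −0.29 in culture, and their difference was −0.85 ± 0.63 (limma adjusted p = 0.510). The 4 dimmer probe sets differed between genotypes by −1.66 to 1.54 in tissue and −0.88 to 2.37 in culture.

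Ret, the signalling kinase of the GDNF family receptors, was not tested. Probe set 1421359_at read 19.7 in mutant culture and 33.5 in WT culture, 22.9 and 23.3 in mutant tissue, and 16.8 in WT tissue. The mutant lay below WT in culture (−0.84, log2) and above it in tissue (0.56). The dimmer probe set, 1436359_at, read 11 in mutant culture and 17.9 in WT culture, 2.44 and 9.30 in mutant tissue and 0.764 in WT tissue, which was at the floor. Both Ret probe sets were thus highest in WT culture.

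Met, the HGF receptor gene, was lower in WT tissue than on the other 4 arrays by 1 of its 2 probe sets. Probe set 1434447_at read 41.2 in mutant culture and 30.3 in WT culture, 46.0 and 30.3 in mutant tissue, and 5.73 in WT tissue. The WT tissue array stood alone, close to the floor of 5.15, while the other 4 arrays lay within a narrow range. The normalised log2 difference was 2.73 in tissue and 0.40 in culture. The tissue value is set against 1 array with hardly any signal over the floor, so its size is uncertain, and it was 1.12 with the 2 probe sets averaged. The gene lay below the intensity filter. In a fit that tested dim genes too, the tissue difference had an adjusted p of 0.255 and that across both preparations 0.600 (limma). The second Met probe set, 1422990_at, read 7.65 in mutant culture and 9.51 in WT culture, 2.05 and 4.53 in mutant tissue and 7.55 in WT tissue. Its mutant tissue arrays were at the floor, below WT, so the 2 probe sets differ in direction.

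Pallial glutamatergic neurons, in which Met and Bdnf are known to be expressed, were checked with 9 markers, 8 of them on the arrays. Their summed signal was 190 in mutant culture and 138 in WT culture, 339 and 315 in mutant tissue, and 129 in WT tissue. Of the 2 bright enough to test, Neurod2 rose in mutant tissue (limma adjusted p = 0.00485) and Neurod1 did not pass (0.0660). The other 6 lay below the filter and did not move alike. Neurod6 read 70.3 and 85.2 in mutant tissue and 0.968 in WT tissue, Neurog2 71.6 and 60.5 in mutant tissue and 8.93 in WT tissue, and Eomes 58.4 and 17.8 in mutant tissue and 11.03 in WT tissue. Slc17a7 was also higher in mutant tissue (14.4 and 5.17, against 2.61 in WT tissue), while Emx1 (5.80 and 4.03, against 32.8 in WT tissue) and Tbr1 (9.34 and 1.19, against 29.3 in WT tissue) were lower. Of 4 cell cycle markers tested, 4 fell in mutant tissue, where 6.70% of all genes did. In culture, 1 array against 1, the mutant lay above WT for all 4, with a median difference of 0.14 (log2). The part of either cell population in the Met and Bdnf values was not tested.

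Hgf, the Met ligand gene, was dim throughout. Probe set 1425379_at read 12.5 in mutant culture and 15.2 in WT culture, 8.71 and 14.9 in mutant tissue, and 11.1 in WT tissue. The WT tissue value lay between the mutant tissue values. Probe set 1451866_a_at was at the floor on all 3 tissue arrays (1.86 and 4.08 in mutant, 0.929 in WT) and read 21.6 in mutant culture and 21.4 in WT culture. Both culture arrays thus stood above all tissue arrays, untested at this brightness. The third probe set, 1442884_at, was above the floor on 1 mutant tissue array alone (15.6), so the probe sets do not share a pattern.

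**Figure D3:**
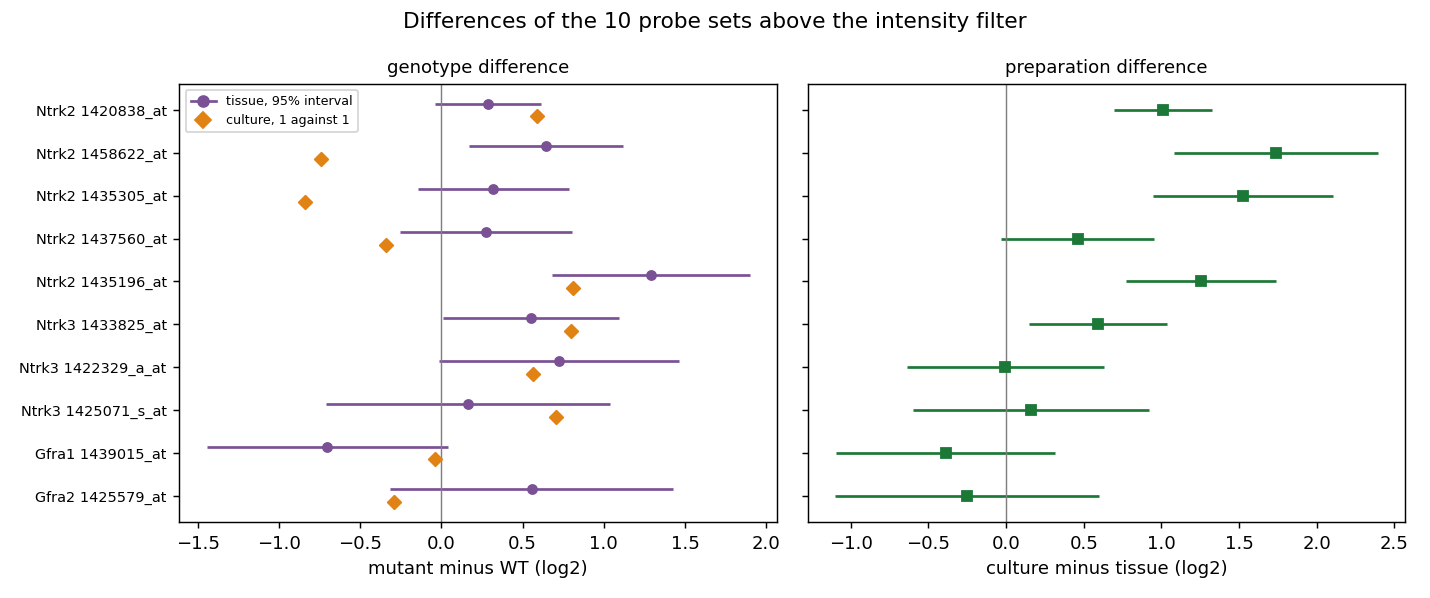
Log2 differences of the 10 probe sets above the intensity filter, from the fit of all probe sets: on the left mutant minus WT in tissue (circles, with 95% intervals) and in culture (diamonds, 1 array against 1, no interval), on the right culture minus tissue (squares, with 95% intervals). In tissue 9 of 10 lie above 0, and 4 of the 5 Ntrk2 probe sets and 1 of 3 Ntrk3 probe sets rose in culture relative to tissue.

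Over the 10 probe sets above the filter, 9 read higher in mutant than in WT tissue, with a median difference of 0.44, beside 51.1% above 0 and a median of 0.01 over all probe sets tested. In culture 5 of 10 read higher in mutants, and 0 of 10 differed at least 2-fold, where 2.02% of probe sets were higher and 2.04% lower by that much. Across both preparations 8 of 10 read higher and 0 of 10 passed (4 by unadjusted limma p-values), where 0.767% of all probe sets passed. The tissue and culture readings of a probe set use different arrays. However, 8 of these 10 probe sets read only 2 genes, Ntrk2 and Ntrk3, and are not independent of one another. All 10 tissue differences are also set against the same WT tissue array, and all 10 culture differences against the same WT culture array. In culture 0 of the 4 genes tested differed at least 2-fold, where 1.85% of genes were higher and 1.83% lower by that much.

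The partners of these receptors were described with 71 further genes of the same pathways, of which 61 had a named probe set and 39 were tested. In tissue 7 of the 39 rose in mutants and 0 fell, where 8.59% of all genes rose and 6.70% fell, and their median difference of 0.05 stood beside 0.00 for all genes. Some glial markers rose in the same tissue arrays. Of 5 oligodendrocyte lineage markers tested, 4 rose in mutant tissue (Olig1, Olig2, Pdgfra and Sox10) and 0 fell, while Mbp differed by 0.002. Their summed signal, with the untested Cspg4, was 2416 and 2384 in mutant tissue and 1305 in WT tissue. Cspg4 was too dim to test and lower in mutant tissue (3.23 and 10.7, against 34.0 in WT tissue). Of 9 astrocyte and radial glia markers 5 rose and 0 fell, and of 6 microglia markers 0 rose and 0 fell. The part of these cells in the pathway values was not tested. Across both preparations 2 of the 39 rose and 0 fell, where 0.814% of all genes rose. The genotype difference in culture was lower than in tissue for 3 of the 39 (2.27% of all genes) and higher for 0 (2.21%). In culture relative to tissue 4 of the 39 rose and 7 fell, where 19.6% of all genes rose and 19.2% fell. Of these 11 calls, 7 were lost with dim genes tested too: those of Plat, Sema4c, Nradd, Plcg1, Crk, Fos and Egr1 (limma adjusted p between 0.0533 and 0.156).

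Among the GDNF family genes, 2 of 5 tested rose in mutant tissue, where 8.59% of all genes did. Ncam1, whose product is an alternative receptor for GDNF, read 851 and 796 in mutant tissue and 490 in WT tissue, with 783 in mutant culture and 816 in WT culture. It rose by 0.73 ± 0.11 in tissue (limma adjusted p = 0.000666), and the culture difference of −0.05 was smaller by 0.78 ± 0.16 (limma adjusted p = 0.0251), but 1 of its 4 probe sets above the filter differed by −0.32 in tissue. Sdc3, a heparan sulphate proteoglycan that binds GDNF, read 277 and 325 in mutant tissue and 120 in WT tissue, a rise of 1.28 ± 0.17 (2.43-fold, limma adjusted p = 0.000285), and its 3 probe sets agreed in direction. Gdnf itself was at the floor on every array (0.894 to 3.51). Nrtn, the ligand gene for the Gfra2 product, differed by −0.51 in tissue (limma adjusted p = 0.246).

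Of the neurotrophin partners, 0 of 4 tested changed with genotype in tissue. The sorting receptor gene Sort1 had signals of 308 in mutant culture and 310 in WT culture, 374 and 309 in mutant tissue, and 377 in WT tissue, and differed by −0.19 in tissue (limma adjusted p = 0.448). Ngfr, which encodes the p75 receptor shared by all neurotrophins, was below the filter, between 18.4 and 23.3 on the 5 arrays. The neurotrophin-4 gene, annotated as Ntf5, read 21.5 in mutant culture and 23.6 in WT culture, 2.60 and 9.84 in mutant tissue and 9.09 in WT tissue. Both culture arrays thus lay above the tissue arrays, untested at this brightness. Nradd, a p75-related death domain gene, fell in culture relative to tissue by 0.81 ± 0.26 (limma adjusted p = 0.0376), a call lost when mutant tissue replicate 1 or 2 was dropped.

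Of 5 tested genes of HGF processing and the Met family, 0 changed with genotype in tissue. Plat, which encodes tissue plasminogen activator, a protease of the kind that can activate HGF, read 717 in mutant culture and 370 in WT culture, 258 and 260 in mutant tissue and 218 in WT tissue. It rose in culture relative to tissue by 1.19 ± 0.18 (limma adjusted p = 0.00152), and with its probe sets averaged the difference was 0.54 (adjusted p = 0.357). The receptor of urokinase, Plaur, whose loss in mice is known to alter interneuron numbers, stayed dim (14.4 to 27.99 on the 5 arrays). Sema4c, a semaphorin gene, fell in culture relative to tissue by 0.96 ± 0.17 (limma adjusted p = 0.00316).

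Of 19 adaptors and transducers tested, 3 rose in mutant tissue and 0 fell, where 8.59% of all genes rose and 6.70% fell. Kidins220, a scaffold bound by Trk receptors, rose by 0.63 ± 0.10 (limma adjusted p = 0.000960), with 1051 and 1012 in mutant tissue and 661 in WT tissue. The PI3-kinase subunit genes Pik3r1 and Pik3ca rose by 1.13 ± 0.15 and 0.75 ± 0.14 (limma adjusted p = 0.000354 and 0.00389). For Pik3ca the genotype difference in culture was −0.46, lower than in tissue by 1.21 ± 0.23 (limma adjusted p = 0.0209). All 4 probe sets of Kidins220 and of Pik3r1 above the filter, and all 5 of Pik3ca, lay in the same direction in tissue. In culture relative to tissue 5 of the 19 adaptors fell, beside 19.2% of all genes: the SH2 adaptor gene Sh2b2 by 1.23, Plcg1 (phospholipase C gamma) by 0.76, Crkl by 0.74, the ubiquitin ligase gene Cbl by 0.41 and Crk by 0.32 (limma adjusted p between 0.00164 and 0.0381). For Sh2b2, Crk and Crkl at least 1 other probe set above the filter differed the other way, and the Crk and Cbl calls were lost when mutant tissue replicate 1 or 2 was dropped.

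Of 6 tested genes that neurotrophic factors are known to induce, 2 rose in mutant tissue, where 8.59% of all genes did. Npy, the neuropeptide Y gene, rose by 1.40 ± 0.07 (limma adjusted p = 2.58e-07). Spry2, a feedback inhibitor of receptor tyrosine kinases, rose by 1.07 ± 0.13 (limma adjusted p = 0.000191). Spry2 read 498 in mutant culture and 284 in WT culture, 447 and 446 in mutant tissue, and 207 in WT tissue. Across both preparations Spry2 rose by 0.95 ± 0.13 and Npy by 1.03 ± 0.17 (limma adjusted p = 0.0192 and 0.0363), calls lost when mutant tissue replicate 1 or 2 was dropped. For Npy the culture difference of 0.53 was lower than the tissue difference by 0.86 ± 0.11 (limma adjusted p = 0.00378). In culture relative to tissue the immediate early genes Fos and Egr1 rose by 2.24 ± 0.41 and 1.71 ± 0.29 and the MAP kinase phosphatase gene Dusp6 by 1.84 ± 0.21 (limma adjusted p = 0.00408, 0.00262 and 0.000456). With a constant prior variance, in a fit that called 2 genes of 11063, and with dim genes tested too, all 7 tissue calls among these pathway genes were lost. With a gene's probe sets averaged, in a fit that called 489 genes of 9853, 5 of the 7 were lost.

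**Figure D4:**
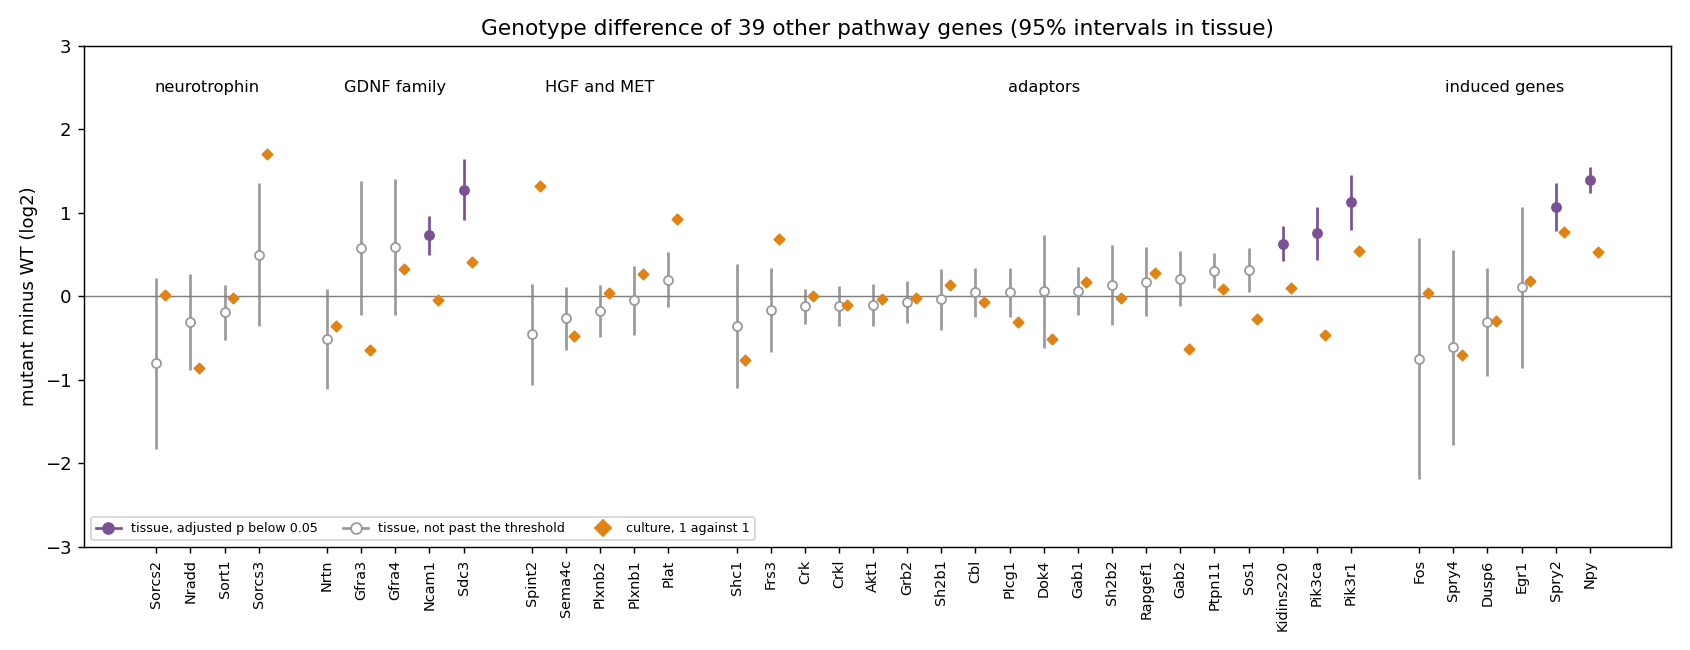
Log2 difference, mutant minus WT, of the 39 other pathway genes tested, in tissue (circles, filled where the limma adjusted p was below 0.05, with 95% intervals) and in culture (diamonds, 1 array against 1), grouped by role. The 7 filled circles, Ncam1, Sdc3, Kidins220, Pik3ca, Pik3r1, Spry2 and Npy, all lie above 0.

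Genes with a similar course over the 5 arrays were found for Ntrk2 and Ntrk3 by the Euclidean distance between log2 values after each gene's own mean was subtracted, among 11062 other genes. For Ntrk2 these were Tmem200c, Rnf128 and Ggact, at distances of 0.126, 0.133 and 0.199, where the median gene lay at 1.27. For Ntrk3 they were Prickle2, Ptgr2 and Dynlrb2, at 0.0810, 0.180 and 0.194, where the median was 1.11. With 5 arrays in 4 groups this is a description of these arrays.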

How the data were processed

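The authors deposited linear intensity values. Neither labels nor file header name the software behind them. Means after trimming 2% at each end were 150 on each of the 5 arrays, which shows a common scaling. Values were quantile normalised, floored and log2 transformed. Symbols came from the platform annotation supplied with the series: 34958 probe sets had 1 symbol, 932 several and 9211 none here, and 64 control probe sets were left out. The probe set with the highest mean stood for a gene.

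Tests ran in limma 3.58.1 (R 4.3.3), with the prior variance following mean intensity and Benjamini-Hochberg adjustment over all features tested (threshold 0.05). The tissue fit had 1 residual degree of freedom, the additive fit of genotype and preparation 2, and the fit of 4 groups 1. In the tissue fit and the fit of 4 groups, a lone array was taken to have the spread of the mutant tissue pair. In the additive fit the spread also includes the disagreement between the tissue and culture genotype differences. Its standard errors and p-values, for genotype across both preparations and for culture relative to tissue, therefore do not measure differences between like arrays alone. Scripts were tested on simulated data. The genes and lists were chosen with earlier results of these data known. All 8 genes are named, and of the other pathway genes those past the threshold and direct ligand or receptor partners with a probe set. Ntf3, the neurotrophin-3 gene, had no probe set annotated with its symbol alone, so this ligand of TrkC was not read. The number of arrays limits precision.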

Additional observations from a re-analysis of the deposited data

Results flagged for a closer look

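For 5 results flagged here the genotype difference in culture was unlike that in tissue. They are not the only ones nor the largest. For Met, also too dim for the filter, the culture difference minus the tissue difference was −2.33 (log2, untested), with the mutant above WT in both preparations. For Ret, the culture difference minus the tissue difference was −1.41 (log2): the 2 mutant tissue arrays lay above WT and the mutant culture array below WT. Ret was too dim for the filter, so this difference was not tested there. With dim genes included its limma adjusted p was 0.338. For Ntrk2 probe set 1458622_at the same quantity was −1.39, for Pik3ca −1.21, for Npy −0.86 and for Ncam1 −0.78, each past the threshold in the fit of 4 groups. In these 5 the culture difference rests on 1 array against 1, and the 4 tested calls were lost with a constant prior variance. Those of Pik3ca, Npy and Ncam1 were also lost with dim genes tested too and with a gene's probe sets averaged.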

How the results depend on the processing

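No paired analysis was possible because only mutant tissue had more than 1 array. Ntrk2 rose in culture relative to tissue under every alternative run. Of the 8 genes, 2 were called there, but 1 with the deposited scaling, with dim genes tested, with a gene's probe sets averaged (1 gene then tested), and with mutant tissue replicate 1 or 2 dropped. For genotype in tissue, across both preparations and in the interaction the number called was 0 under every gene-level alternative that gave a test. Over all genes, the tissue count of 1691 became 389 with dim genes tested, 489 with probe sets averaged and 2 with a constant prior variance. The count of 118 across both preparations became 0 (1713 by unadjusted limma p-values), 35 and 4 under these, and 33 to 40 with a replicate dropped. The preparation count of 4297 became 1894 with dim genes tested, 6742 over probe sets and 2795 to 2958 with a replicate dropped. The interaction count of 496 became 4 with probe sets averaged and 0 (1681 by unadjusted limma p-values) with a constant prior variance. The count at least 2-fold apart in culture, 407, became 2470 with dim genes and 784 over probe sets. With probe sets averaged, tissue genotype differences were smaller: 0.085 for Ntrk2 (otherwise 0.29), 0.068 for Ntrk3 (0.55), −0.24 for Gfra1 (−0.70), 0.12 for Gfra2 (0.56), −0.05 for Bdnf (−1.07) and 1.12 for Met (2.73). The culture difference was then −0.021 for Ntrk2 (0.59), −0.023 for Met (0.40) and 0.74 for Gfra2 (−0.29). Also there, the Ntrk2 interaction changed sign to −0.11 (limma adjusted p = 0.918) and the Crk preparation difference to 0.095 (limma adjusted p = 0.773). In the fit of all probe sets, whose alternatives were chosen after seeing the data, differences near 0 changed sign with a replicate dropped: across both preparations 1458622_at to −0.11 and 1437560_at to −0.060 and −0.001, and between preparations 1422329_a_at to 0.037. With the deposited scaling 1458622_at passed in tissue (limma adjusted p = 0.0481). The cause of these changes was not tested. With 1 or 2 residual degrees of freedom, all calls lean on the prior variance, and dropping a mutant tissue replicate left the tissue and interaction results as values with no test.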
